A study of Mus musculus with 16 samples.

Results

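The comparison described here asks whether sonidegib and an antibody against PD-L1, given together, moved gene expression in mouse mammary tumours by more or less than their separate effects add up to. It is the interaction of a layout with 2 drugs, each present or absent: on the scale log2(FPKM + 1), the Combo mean minus the PD-L1 mean minus the Sonidegib mean plus the Vehicle mean. FPKM is fragments per length of transcript and per number of mapped fragments. The members are all genes that reached 1 FPKM in 4 or more of the 16 libraries, which holds for 15105 of the 55146 genes in the table.

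Tumours were taken from MMTV-PyMT mice aged 12 weeks, in which a mammary tumour virus promoter drives the polyoma middle T antigen, and were placed into fat pad 4 of FVB hosts. Every group carried the same transgenic tumour. The Vehicle group received vehicle, the PD-L1 group the antibody 2 times a week at 5 mg/kg, the Sonidegib group sonidegib at 20 mg/kg each day, and the Combo group both, for 28 days, with 4 tumours per group. Whether the tumours of a group had separate donors is not given in the labels, and the p-values therefore cover only the spread among the tumours at hand. Epithelial keratin RNA was abundant in every library, with Krt8 at 172 to 697 FPKM and Krt18 at 158 to 760 FPKM.

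Sonidegib binds Smoothened, the membrane protein that passes the Hedgehog signal to the GLI transcription factors when the receptor Patched is occupied by its ligand. PD-L1 on tumour and myeloid cells engages PD-1 on T cells and restrains them, and antibodies against it are used to release that restraint. When 2 treatments act independently on a log scale, the ratio each one produces is the same with and without the other, and the interaction is 0. A negative interaction means that the combination lay below the sum of the single effects, and it does not by itself say that the combination lay below Vehicle.

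A pair of libraries stood apart, Vehicle replicate 3 in its overall level and Combo replicate 1 in the genes of some lists. Vehicle replicate 3 had 11361 genes with at least 1 FPKM against 13107 to 14784 in the others, and the median log2 deviation of its genes from their medians over all libraries was -0.76. Combo replicate 1 differed from the other Combo libraries in some immune lists. The score of the interferon-gamma response list, the mean log2 deviation of its members less the median over all genes, was -0.62 in it while Combo replicates 2, 3 and 4 were at 0.86, 1.78 and 1.06. Not every immune list differed: the monocyte chemokine score was 0.47 in it and 0.35, 0.36 and 0.80 in the same 3 tumours. The adipocyte score moved opposite to the interferon-gamma score, with 2.88 in Combo replicate 1, the highest of the 16 tumours, and -0.58, 0.34 and 0.70 in the other Combo tumours. The slope of the log2 deviation per unit of GC fraction was 2.13 in Combo replicate 1 and -3.24, -2.81 and -3.87 in the other 3. The number of genes with at least 1 FPKM (13454) and the median deviation (-0.05) of Combo replicate 1 were inside the range of the others. The part of these values in the results that turn on this library was not tested. The values for ribosomal RNA genes, those of the mitochondrial genome included, summed to 20802 FPKM in Combo replicate 1 and 21278 in Vehicle replicate 4, against 4856 to 13343 in the remaining libraries. The mitochondrially encoded protein-coding genes summed to 41949 and 38524 FPKM in Combo replicates 2 and 4, and to 3552 to 18642 in the rest. Depth, estimated from the FPKM steps of single-transcript genes, was about 34.7 to 56.8 M fragments per library. Values without these libraries stand beside the results they move.

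One gene passed the test. Alkal2, a secreted ligand of the receptor tyrosine kinases ALK and LTK, was high with either drug alone and low with both together. In the Vehicle tumours Alkal2 was at 3.52, 0.419, 2.56 and 0.331 FPKM, and in the PD-L1 tumours at 4.53, 5.86, 4.04 and 16.3 FPKM. It was at 9.92, 8.44, 5.71 and 11 FPKM in the Sonidegib tumours and at 1.29, 1.69, 1.19 and 1.51 FPKM in the Combo tumours. All 8 tumours given a single drug thus lay above all 8 tumours given vehicle or both drugs, and the Combo values were spread within the Vehicle range. Relative to Vehicle, sonidegib alone gave a log2 difference of 2.02 and the antibody alone 1.69. Adding sonidegib to the antibody gave -1.65, and adding the antibody to sonidegib gave -1.98. None of these 4 differences passed by itself over all genes (limma adjusted p = 0.127, 0.158, 0.548 and 0.641 in that order). They share libraries with each other and with the interaction, and are given side by side only. Had the single effects added on the log scale, Alkal2 would have been at 29.8 FPKM in the Combo tumours, where the measured geometric level was 1.41 FPKM.

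The interaction of Alkal2 was -3.68 (SE 0.56, 95% interval -4.85 to -2.50; limma, Benjamini-Hochberg adjusted p = 0.049). It was the one negative call among the genes tested, 0.00662% of them, and 0 genes were called in the positive direction, which is 0%. On the linear scale the Combo mean lay -13.3 ± 3.23 FPKM (SE, n = 4 per group) from the sum of the single-drug effects, so the direction does not depend on the scale. The adjusted p lies next to the threshold of 0.05. Among 29 other settings the estimate ranged from -4.96 to -3.22 and the adjusted p from 0.0129 to 0.681, below the threshold in 6 settings and above it in 23. Without Vehicle replicate 3 the interaction was -3.88 (adjusted p = 0.141), and without Combo replicate 1 it was -3.65 (adjusted p = 0.0434). The direction was the same in all 29 settings, and the call was not.

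The receptors of this ligand did not show the same pattern. Ltk was at 1.43, 1.10, 1.35 and 1.84 FPKM in Vehicle tumours, 1.95, 1.16, 1.69 and 1.90 with anti-PD-L1, 1.59, 1.23, 1.48 and 1.37 with sonidegib, and 0.983, 1.06, 1.37 and 1.10 with both. Its interaction was -0.32 (SE 0.23, 95% interval -0.80 to 0.16, adjusted p = 0.529), close to the median of all genes given below. Alk, the other receptor, was at 0.035 FPKM or less in every library and listed at 0 in 11 of 16. Alkal1, the related ligand, was listed at 0 in 15 of 16 libraries.

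**Figure D1:**
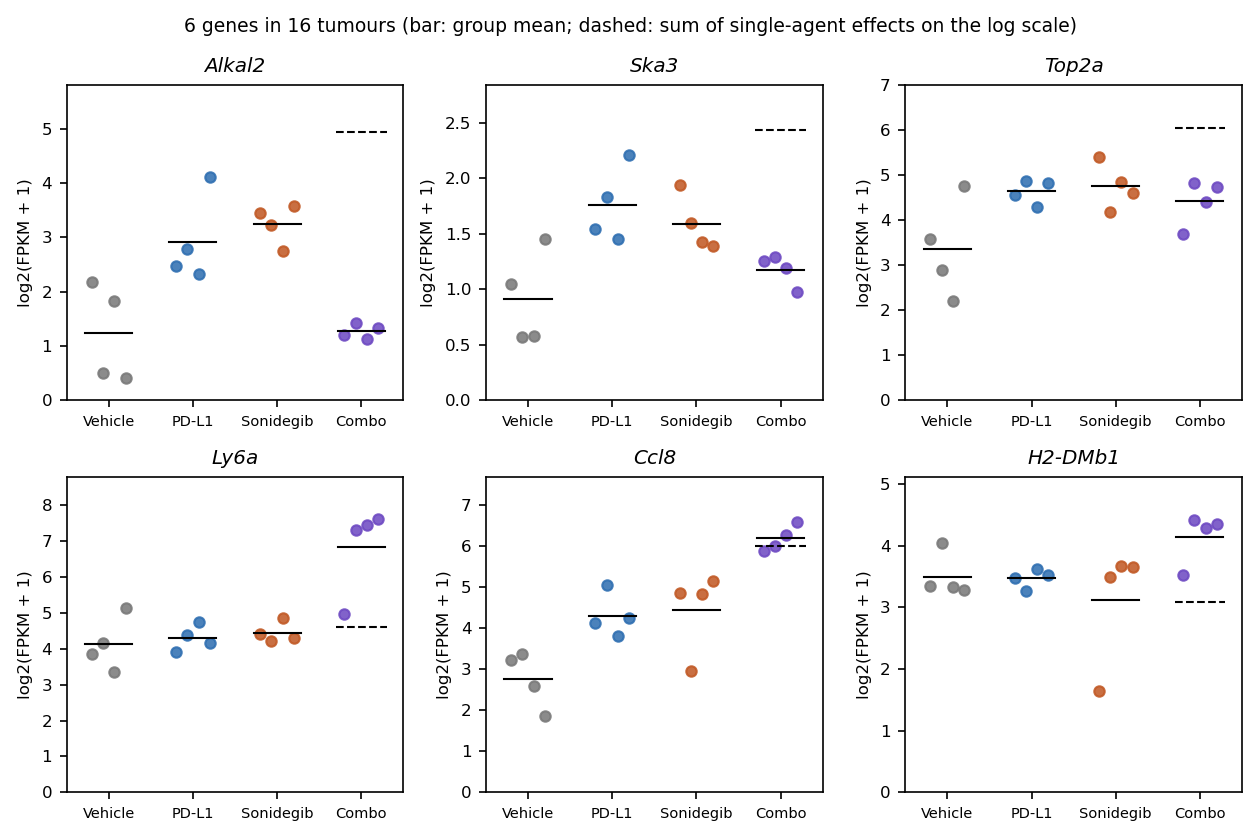
Each point is 1 tumour, plotted as log2(FPKM + 1) against the treatment group for 6 genes. Solid bars are group means of 4 tumours, and the dashed bar over Combo is the level at which the single-drug effects would add on this scale. Alkal2, Ska3 and Top2a lie below the dashed bar in all 4 Combo tumours, Ly6a and H2-DMb1 lie above it with Combo replicate 1 lowest, and Ccl8 lies around it.

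Alkal2 (ENSMUSG00000054204.6) spans 30884322 to 30893854 of chromosome 12 (GRCm38, plus strand). The 250 bases before the RefSeq start of Alkal2, which lies 2 bases inside the GENCODE span just given, are printed because it is the called gene, those of Ska3 (ENSMUSG00000021965.3, chromosome 14) because it has the next lowest p, and those of Top2a (ENSMUSG00000020914.17, chromosome 11) because it belongs to the cell division genes described next. The windows are chr12:30884074-30884323 on the plus strand, chr14:57826164-57826413 on the minus strand and chr11:99024190-99024439 on the minus strand, from RefSeq on GRCm38.p6, written 5′ to 3′ on the gene's strand. Capitals mark the hypoxia response element core ACGTG in Alkal2, the CHR element of cell cycle promoters, TTTGAA, in Ska3 and Top2a, and the CCAAT box in Top2a, each searched on both strands, so that they also appear as their reverse complements.
Alkal2: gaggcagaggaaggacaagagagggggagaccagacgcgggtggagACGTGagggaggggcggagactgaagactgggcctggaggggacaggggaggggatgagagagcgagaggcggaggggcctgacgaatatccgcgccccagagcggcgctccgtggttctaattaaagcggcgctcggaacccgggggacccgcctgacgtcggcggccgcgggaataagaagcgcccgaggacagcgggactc
Ska3: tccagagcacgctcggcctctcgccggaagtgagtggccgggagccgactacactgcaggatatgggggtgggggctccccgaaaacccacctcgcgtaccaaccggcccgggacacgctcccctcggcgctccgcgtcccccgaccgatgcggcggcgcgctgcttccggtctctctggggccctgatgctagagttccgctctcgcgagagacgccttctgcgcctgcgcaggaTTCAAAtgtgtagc
Top2a: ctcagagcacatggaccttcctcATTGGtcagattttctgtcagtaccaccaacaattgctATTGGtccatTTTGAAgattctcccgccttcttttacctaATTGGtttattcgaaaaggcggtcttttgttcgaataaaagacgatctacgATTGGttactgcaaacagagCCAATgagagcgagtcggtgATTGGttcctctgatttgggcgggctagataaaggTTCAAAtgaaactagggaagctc

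The Top2a window held 6 matches to CCAAT and 2 to TTTGAA, the Ska3 window 1 to TTTGAA, and the Alkal2 window 1 to ACGTG, 204 bases before the start. Over all 27025 promoters of the table, CCAAT was present in 37.5%, TTTGAA in 18.3% and ACGTG in 18.5%, and over the 9839 tested genes with a promoter in 40.6%, 12.9% and 24.8%. Of the 22 proliferation genes with a promoter, 18 held CCAAT (81.8%) and 7 held TTTGAA (31.8%), and of the 22 hypoxia and glycolysis genes 13 held ACGTG (59.1%). Among the other lists described below, the CCAAT share ran from 0% (monocyte chemokines) to 77.8% (MHC class I presentation). The TTTGAA share ran from 0% (MHC class II presentation) to 33.3% (interferon-gamma response). Such shares were thus not particular to the cell division genes. No match in capitals overlaps another. A match describes letters in the window and is not a measured binding site.

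The genes next in order after Alkal2 were negative too, and none of them passed (adjusted p = 0.485 for each by limma). At an unadjusted p under 0.05, 1420 genes had a negative interaction (9.4%) and 72 a positive one (0.477%). The sign of this imbalance came with a shift of all genes: the median interaction was -0.35, with 12013 genes below 0 (79.5%) and 3092 above (20.5%). After median-of-ratios scaling the median was 0.04 and the counts were 399 negative and 637 positive, and after quantile normalization they were 676 and 578. Without Vehicle replicate 3 the median was -0.17 and the counts were 737 and 126. Values relative to the median of all tested genes are therefore given where direction matters, and for Alkal2 this value is -3.32.

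**Figure D2:**
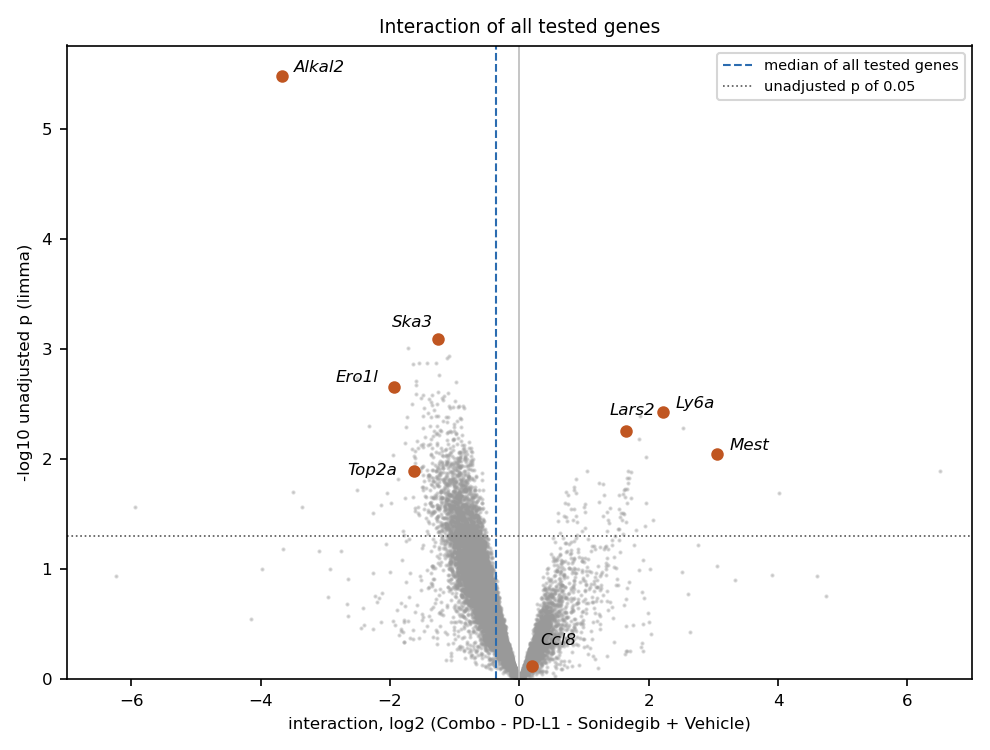
Each grey point is 1 of 15105 tested genes, plotted by its interaction on the log2 scale (x axis) and the negative log10 of its unadjusted p from limma (y axis), with 8 genes named. The dashed line is the median of all genes, -0.35, and the dotted line an unadjusted p of 0.05; 3 genes lie outside the x axis limits of -7 and 7. Alkal2 stands above all other genes, and the cloud leans to the negative side.

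The leading negative genes had unlike functions. Ska3, a subunit of the complex that couples kinetochores to microtubules, was at 1.06, 0.486, 0.494 and 1.73 FPKM in the Vehicle tumours and at 1.91, 2.55, 1.74 and 3.63 in the PD-L1 tumours. It was at 2.84, 2.02, 1.69 and 1.62 FPKM with sonidegib and at 1.38, 1.45, 1.28 and 0.959 with both. The 4 PD-L1 tumours and Sonidegib replicates 1 and 2 exceeded every Vehicle tumour, and the Combo tumours lay inside the Vehicle range. The interaction of Ska3 was -1.26 (SE 0.32) and -0.91 relative to all genes, and it was -1.15 without Vehicle replicate 3 and -1.29 without Combo replicate 1.

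Incenp, the scaffold of the chromosomal passenger complex, was at 4.49 to 6.97 FPKM with Vehicle, 6.15 to 11.5 with anti-PD-L1, 6.93 to 13 with sonidegib and 3.56 to 5.57 with both (interaction -1.24, SE 0.34, and -1.14 without Vehicle replicate 3). Its Combo range lay below both single-drug ranges. Tdp1, which removes trapped topoisomerase I from DNA, was at 1.26 to 2.98, 3.99 to 4.30, 4.22 to 6.25 and 3.04 to 4.17 FPKM in the same order (interaction -1.09, SE 0.28). Mtap, the methylthioadenosine phosphorylase of the methionine salvage pathway, was at 1.73 to 8.07, 7.94 to 9.05, 7.41 to 11.1 and 5.82 to 6.85 FPKM (interaction -1.43, SE 0.38). For Tdp1 and Mtap the lowest Vehicle value was that of replicate 3, and without it the interactions were -0.91 and -1.16. Gadd45a, a growth arrest gene induced by DNA damage, had an interaction of -1.29 (SE 0.34). Il20rb, a receptor subunit for cytokines of the interleukin-10 family, had -1.55 (SE 0.41), with 3 Combo tumours at 1.10, 1.10 and 1.13 FPKM and Combo replicate 1 at 2.27. The leading negative genes also held Prelid2 (-1.72) and the noncoding AI506816 (-1.64).

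Genes of cell division lay below additivity as a list. All 27 tested members of the proliferation list, chosen as markers of DNA synthesis and mitosis, had an interaction below 0, 15 of them at an unadjusted p under 0.05, and 0 passed over all genes. That is 55.6% of the list against 9.4% of all genes. The list median was -1.07, or -0.72 relative to all genes, and relative medians were -0.78 to -0.52 when single libraries were left out. The -0.52 came without Vehicle replicate 2. The score of this list was low in Vehicle replicates 2 and 3 (-0.62 and -0.52) but not in replicates 1 and 4 (0.13 and 0.15). PD-L1 tumours had scores of -0.06 to 0.52, Sonidegib tumours 0.006 to 0.28 and Combo tumours -0.35 to 0.17. The list without both low Vehicle tumours was not tested. After median-of-ratios scaling 8 members were at an unadjusted p under 0.05 against 2.64% of all genes, with a relative median of -0.68. With Vehicle replicate 3 and Combo replicate 1 both left out it was 9 members against 5.34%, with a relative median of -0.69.

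Top2a, the DNA topoisomerase of dividing cells, was at 10.9, 6.46, 3.57 and 26.1 FPKM in the Vehicle tumours and at 22.7, 28.3, 18.7 and 27.2 in the PD-L1 tumours. It was at 41.3, 17.0, 27.6 and 23.3 FPKM with sonidegib and at 11.8, 27.2, 20.2 and 25.7 with both. The Combo tumours overlapped all 3 other groups, and the single-drug tumours lay above Vehicle replicates 1, 2 and 3 and overlapped Vehicle replicate 4. Its interaction was -1.63 (SE 0.59), with single-drug differences from Vehicle of 1.40 for sonidegib and 1.28 for anti-PD-L1. Rrm2, a subunit of ribonucleotide reductase, had -1.20 (SE 0.41), cyclin A2 (Ccna2) -1.51 (SE 0.54) and the checkpoint kinase Bub1b -1.26 (SE 0.45). The Combo means of these 4 genes lay between the Vehicle mean and both single-drug means. For Rrm2 the Vehicle mean was 8.91 ± 4.37 FPKM, the PD-L1 mean 16 ± 3.75, the Sonidegib mean 12.9 ± 2.22 and the Combo mean 10.1 ± 2.34 (SD, n = 4 each). Without Vehicle replicate 3 the interaction of Top2a was -1.24 and that of Rrm2 -0.96.

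Cytosolic ribosomal protein genes lay below additivity nearly as a whole, with 33 of 34 below 0, a median of -0.79 and -0.44 relative to all genes, but 3 were at an unadjusted p under 0.05 (Rps6 and Rpl4 among them). With the values as deposited this share, 8.82%, is near the 9.4% of all genes. Rps6, of the small subunit, was at 101, 54.6, 35.1 and 124 FPKM with Vehicle, and at 114 to 160, 149 to 195 and 118 to 189 FPKM with anti-PD-L1, sonidegib and both. The low values were Vehicle replicates 2 and 3. The count was 0 members after median-of-ratios scaling, against 2.64% of all genes, and 17 after quantile normalization, which is 50% of the list against 4.48% of all genes. Without Vehicle replicate 3 it was 1 member, against 4.88% of all genes, with a relative median of -0.32. These genes have many processed pseudogene copies, between which fragments can be split. Of 15 heat shock protein genes 1 was at an unadjusted p under 0.05, Hspd1, the mitochondrial chaperonin (-1.35, SE 0.45). That is 6.67% against 9.4% of all genes, and the relative median was -0.20. Of 16 p53 target and growth arrest genes 3 were, Gadd45a, Eda2r (-0.93) and Mdm2 (-0.84), which is 18.8% against 9.4%. Their relative median was -0.17, and 1 was at that p after median-of-ratios scaling (6.25% against 2.64%).

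In the hypoxia and glycolysis list, 23 of 24 genes lay below 0 and 6 were at an unadjusted p under 0.05 (25.0% against 9.4% of all genes), with a median of -0.66 and -0.31 relative to all genes. Ero1l, an oxidase of protein folding induced by low oxygen, was at 32.0, 20.2, 14.4 and 42.6 FPKM in the Vehicle tumours and at 77.5, 64.6, 39.4 and 27.8 in the PD-L1 tumours. It was at 40.6, 47.9, 48.9 and 23.9 FPKM with sonidegib and at 34.2, 18.1, 13 and 15 with both. Its interaction was -1.93 (SE 0.54, adjusted p = 0.485). The prolyl hydroxylase Egln3, a target of hypoxia-inducible factor, was at 37.4 to 56.0 FPKM with Vehicle, 44.8 to 76.1 with anti-PD-L1, 41.2 to 56.7 with sonidegib and at 43.2, 22.2, 17.3 and 26.6 FPKM with both (interaction -1.23, SE 0.39). The mitophagy receptor Bnip3 had -1.31 (SE 0.52). For Ero1l and Egln3 Combo replicate 1 was the high Combo tumour.

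This list depended on Combo replicate 1, on Vehicle replicate 3 and on scaling. Without Combo replicate 1, 13 of the 24 hypoxia and glycolysis genes were at an unadjusted p under 0.05, against 8.04% of all genes, and the relative median was -0.65. The score of this list was 0.45 in that library and -0.999, -1.05 and -0.82 in Combo replicates 2, 3 and 4. The higher count without it thus restates that score. Without Vehicle replicate 3, 2 genes were at that p (8.33%, against 4.88% of all genes), and the relative median was -0.31. After median-of-ratios scaling of all 16 libraries 1 gene was at that p (4.17%, against 2.64% of all genes), and the relative median was -0.23. The glucose transporter Slc2a1 was at 70.7, 93.2, 54.0 and 54.5 FPKM in Vehicle tumours, 46.9, 36.3, 55.1 and 35.5 with anti-PD-L1, 18.3, 70.2, 43.6 and 21.7 with sonidegib and 58.5, 7.73, 9.01 and 13 with both. Here 3 Combo tumours were the lowest of the 16 and Combo replicate 1 was within the Vehicle range. The interaction of Slc2a1 was -0.44 (95% interval -1.92 to 1.04), 0.08 after median-of-ratios scaling and 8.23 FPKM on the linear scale, so its sign is not determined by these data.

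In the positive direction the lowest p belonged to Ly6a, which encodes the surface antigen Sca-1, an interferon-inducible protein of the Ly6 family. Ly6a was at 13.3, 17.0, 9.26 and 34.4 FPKM in the Vehicle tumours and at 14.1, 20.0, 25.7 and 16.8 in the PD-L1 tumours. It was at 20.1, 17.6, 27.8 and 18.8 FPKM with sonidegib and at 30.1, 157, 175 and 193 with both. Combo replicates 2, 3 and 4 thus stood far above the other 13 tumours, and Combo replicate 1 lay below Vehicle replicate 4. The level from additive log effects would be 23.4 FPKM. The interaction of Ly6a was 2.22 (SE 0.67, 95% interval 0.82 to 3.62, adjusted p = 0.485), or 2.57 relative to all genes. Without Combo replicate 1 it was 2.84 (adjusted p = 0.0434), and with Vehicle replicate 3 left out as well it was 3.10 (adjusted p = 0.0263). Combo replicate 1 was set apart by a low score of the interferon-gamma response list and was the low Combo tumour for Ly6a. A higher estimate without it was thus fixed in advance, and these 2 adjusted p-values are no separate support.

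Leaving out Combo replicate 1 raised the number of called genes from 1 to 5. Beside Alkal2 and Ly6a they were Ly6c2 (1.69), Hoxb2 (1.75) and Pgf (-2.60), each with an adjusted p of 0.0434. Ly6c2, the monocyte antigen Ly6C2, was at 0.546 to 1.64 FPKM in the 12 tumours outside the Combo group and at 0.781, 4.08, 6.40 and 6.44 FPKM in the Combo tumours (interaction with all libraries 1.23, SE 0.47). It is a close copy of Ly6c1, so fragments may be split between them. The homeobox gene Hoxb2 was at 0.0171 to 1.16 FPKM outside the Combo group and at 0.152, 4.11, 4.22 and 3.27 FPKM within it, so that it passed the filter on low values through 3 high Combo tumours and Sonidegib replicate 2, and had to differ. Placental growth factor, Pgf, a ligand of the receptor FLT1, was at 12.1 to 34.5 FPKM outside the Combo group and at 25.4, 3.49, 4.01 and 2.67 FPKM within it. For each of these genes the value of Combo replicate 1 lay inside the range of the other groups. For Ly6c2, Hoxb2 and Pgf it was also the Combo value nearest to the other groups. Leaving it out therefore had to enlarge their estimates, and these calls are no separate support. Pgf and Hoxb2 are named because of these calls, after their values were seen.

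The other positive genes were less uniform. Mest, an imprinted gene, was at 2.00 to 9.63 FPKM with Vehicle, 1.17 to 3.29 with anti-PD-L1, 0.784 to 4.20 with sonidegib and at 1.28, 18.7, 8.08 and 38.9 FPKM with both (interaction 3.06, SE 1.01, adjusted p = 0.485). Lars2, the mitochondrial leucyl-tRNA synthetase, was at 905, 823, 1063 and 474 FPKM with Vehicle, 288 to 451 with anti-PD-L1, 553 to 791 with sonidegib and 1810, 623, 1049 and 702 with both (interaction 1.65, SE 0.53). Its highest value was in Combo replicate 1, 1 of the 2 libraries with the highest ribosomal RNA sums. The other of these, Vehicle replicate 4, held the lowest Vehicle value, 474 FPKM. The part of ribosomal RNA in the result was not tested. Tor3a (0.84), Rab43 (0.84), Osgin1 (0.87) and the processed pseudogene H3f3c (0.72) followed. Of the 72 positive genes at an unadjusted p under 0.05, 29 were among 11900 tested protein-coding genes and 31 among 246 tested small nuclear, nucleolar or Cajal body RNAs, such as Snord15b (1.63). Another 7 of these small RNAs were at that p in the negative direction. These small RNAs have near-identical copies and their values are uncertain. Scarna8 was listed at 0 in 2 libraries and at 2.26 to 66.9 FPKM in the rest.

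Antigen presentation and interferon lists had medians above that of all genes, and none of their members passed. All 9 tested MHC class II presentation genes had an interaction above 0 with a median of 0.81, or 1.16 relative to all genes. With the values as deposited 0 of them were at an unadjusted p under 0.05. After median-of-ratios scaling 3 of them were (33.3%, against 4.22% of all genes in the positive direction). H2-DMb1, which loads peptides onto class II molecules, was at 9.22, 15.4, 9.05 and 8.72 FPKM in the Vehicle tumours and at 10.2, 8.61, 11.3 and 10.6 in the PD-L1 tumours. It was at 2.13, 10.3, 11.7 and 11.6 FPKM with sonidegib and at 10.5, 20.3, 18.6 and 19.4 with both (interaction 1.06, SE 0.51, adjusted p = 0.485). Combo replicates 2, 3 and 4 were the highest of the 16 tumours, and Sonidegib replicate 1 was the lowest. H2-Aa, the class II alpha chain, was at 6.99 to 59.3 FPKM outside the Combo group and at 22.1, 189, 124 and 154 FPKM within it (interaction 1.26, 95% interval -0.72 to 3.23). Without Combo replicate 1, 4 of the 9 class II genes were at an unadjusted p under 0.05, against 1.32% of all genes in that direction, and the relative median was 0.58 without Sonidegib replicate 1 and 1.00 without Vehicle replicate 3. Combo replicate 1 was also low in the class II score (-0.42), so the count without it restates that score.

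Of 19 interferon-gamma response genes 16 lay above 0 with a median of 0.30 (0.65 relative to all genes) and 1, Cxcl10, was at an unadjusted p under 0.05. Cxcl10, a chemokine that draws T cells, was at 1.80 to 2.67 FPKM with Vehicle, 1.42 to 2.19 with anti-PD-L1, 0.801 to 2.83 with sonidegib and at 1.59, 2.30, 7.83 and 3.69 FPKM with both (interaction 1.01, SE 0.43). The relative median was 0.27 without Combo replicate 3 and 1.19 without Combo replicate 1. The latter library was set apart by the score of this same list, so the higher value restates that score. Of the 12 interferon-gamma response genes with a promoter in the RefSeq table, 5 held the GAS element TTCNNNGAA (41.7%, against 7.09% of tested genes) and 8 the ISRE element (66.7%, against 3.22%), searched on both strands. The 24 type I interferon response genes had a median of 0.34 and the 19 MHC class I presentation genes 0.36. With the values as deposited, 0 positive members were at an unadjusted p under 0.05 in either list. In the negative direction 1 class I gene was, and 4 of the 19 lay below the median of all genes. Positive members at that p after median-of-ratios scaling were 2 type I genes (8.33%) and 4 class I genes (21.1%). Of the interferon-gamma genes 3 were (15.8%), against 4.22% of all genes. Iigp1, an interferon-inducible GTPase, was at 3.41 to 10.6 FPKM with Vehicle, 22.6 to 38.2 with anti-PD-L1, 10.2 to 40.4 with sonidegib and at 6.94, 188, 356 and 203 FPKM with both. Its interaction was 0.25 (95% interval -2.57 to 3.06), and 1.48 without Combo replicate 1, and it turned negative without any 1 of Sonidegib replicate 2 and Combo replicates 2, 3 and 4.

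High levels with both drugs were not the same as an interaction. All 4 Combo tumours lay above all 12 others for 8 genes (0.053%) and below all 12 others for 7 (0.0463%). A random order of the libraries would give counts near these, so the counts do not by themselves show an effect of the combination. The 8 were Ccl8, Ly6c1, Ighm, Pla1a, Reg1, Lrrc17, Swsap1 and Gm44075, and the 7 were Arhgef39, Pim2, Itga9, Aak1, Lrsam1, Tjap1 and 1700023B13Rik. None of these 15 genes passed the interaction test, and Arhgef39 (-0.74), Pim2 (-0.57) and Itga9 (-0.61) were at an unadjusted p under 0.05. Without Combo replicate 1 the counts were 595 and 394.

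Ccl8, a monocyte-attracting chemokine, was at 8.27, 9.42, 4.98 and 2.64 FPKM in Vehicle tumours, 16.4, 32.0, 12.9 and 18.0 with anti-PD-L1, 27.8, 6.77, 27.5 and 34.6 with sonidegib and 57.8, 63.2, 75.5 and 95.7 with both. The log2 difference was 1.69 for sonidegib alone and 1.88 on top of the antibody, and 1.54 for the antibody alone and 1.74 on top of sonidegib. The expected level from adding log effects was 62.7 FPKM and the measured geometric level 71.7 FPKM. The interaction of Ccl8 was 0.19 (SE 0.60, 95% interval -1.07 to 1.45, adjusted p = 0.889), an interval that holds sizable departures in both directions. On the linear scale, where FPKM differences are added, the Combo mean lay 35.4 ± 11.3 FPKM above the sum. Whether Ccl8 departs from additivity is thus not settled: the log2 interval holds both signs, and the linear departure was not tested. Without Sonidegib replicate 2 its log2 interaction was -0.31. Ly6c1, a Ly6 antigen of endothelium and immune cells, was at 1.91 to 3.53, 2.65 to 7.89, 3.09 to 8.35 and 11.1 to 23.4 FPKM in the 4 groups (interaction 0.77, 95% interval -0.16 to 1.70).

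Markers of immune cells were measured in the same tumours. In bulk tissue, more cells of a type and more RNA per cell cannot be told apart. Of the 21 T cell markers 6 passed the filter on low values, with a median interaction of 0.28. Their interactions ran from -0.27 to 0.54, with 4 above 0 and 2 below, and 0 were at an unadjusted p under 0.05. The T cell receptor chain Trbc1 was at 0.12 FPKM in Combo replicate 1 and at 4.08, 2.61 and 4.20 in the other Combo tumours, against 0.124 to 1.37 in the 12 remaining tumours (interaction 0.54, 95% interval -0.49 to 1.58). Cd8a, under the filter, was at 0.397, 1.58, 2.37 and 1.27 FPKM in the Combo tumours and 0.0598 to 0.98 elsewhere. Cd4 and Foxp3, also under the filter, did not separate in this way. Cd4 was at 0.320, 0.873, 0.777 and 0.795 FPKM in the Combo tumours and 0.290 to 1.42 elsewhere. Foxp3 was at 0.117, 0.0495, 0.267 and 0.115 FPKM in the Combo tumours and 0.0368 to 0.190 elsewhere. The score of the T cell list was -0.40 in Combo replicate 1 and 0.84 to 1.05 in the other 3, and thus moved with Ly6a, the class II genes and the interferon-gamma genes across the Combo libraries. The part of T cells in those results was not tested.

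The 20 macrophage and monocyte markers had a median of 0.16, with Csf1r, the receptor for macrophage colony-stimulating factor, at 0.76 (SE 0.31) and the scavenger receptor Cd163 at -0.72 (SE 0.31). At an unadjusted p under 0.05, 2 were positive and 1 negative (10% and 5%, against 0.477% and 9.4% of all genes). After median-of-ratios scaling 9 were positive (45%, against 4.22%) and 0 negative. The Vehicle mean of Csf1r was 22.1 ± 6.19 FPKM, the PD-L1 mean 15.2 ± 1.13, the Sonidegib mean 14.7 ± 3.08 and the Combo mean 17.8 ± 1.75 (SD, n = 4 each). The 7 tested neutrophil genes had a median of -0.15, or 0.20 relative to all genes, with 3 above 0 and 4 below. At an unadjusted p under 0.05, 2 were negative (28.6% against 9.4% of all genes), and 1 was after median-of-ratios scaling (14.3% against 2.64%). Of these 7 genes, the chemokine Cxcl1 had -1.77 (SE 0.58), and its highest value, 15.4 FPKM, was in Sonidegib replicate 4. S100a9, a calcium-binding protein of neutrophils, had -1.29 (SE 0.59) and was also highest in that tumour. Skeletal muscle genes had the lowest list median, -1.69 over 11 genes, with 0 at an unadjusted p under 0.05. Mylpf, a fast muscle myosin light chain, reached 203 FPKM in PD-L1 replicate 2 and 117 FPKM in Combo replicate 4 and was at 49.2 FPKM or less elsewhere. Without PD-L1 replicate 2 the relative median of the muscle list was -0.39.

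**Figure D3:**
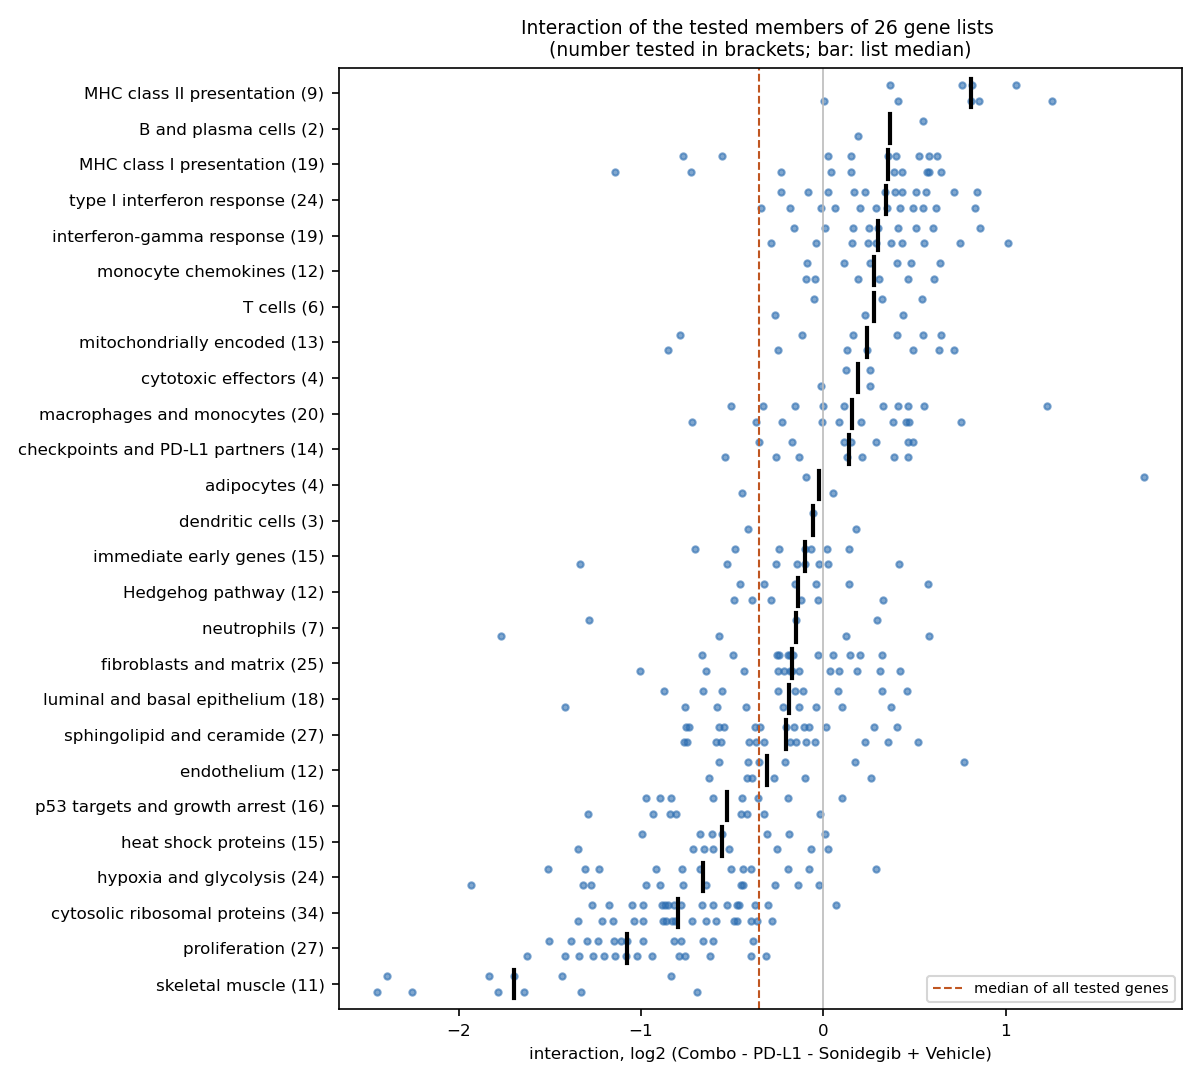
Each point is the interaction of 1 tested gene on the log2 scale (x axis), and each line 1 of 26 gene lists with its number of tested genes, ordered by the list median (black bar). The dashed line is the median of all tested genes, -0.35. Proliferation and ribosomal protein genes lie almost wholly to its left, and class II and interferon genes to its right.

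The targets of the 2 drugs themselves showed no interaction that passed. Of 20 Hedgehog pathway genes 12 were tested, with a median of -0.14 (0.23 after median-of-ratios scaling) and 0 at an unadjusted p under 0.05. After median-of-ratios scaling 2 were positive at that p (16.7%, against 4.22% of all genes), and after quantile normalization 0 were. Smo, which encodes the target of sonidegib, was at 12.2 to 27.3 FPKM over the 16 tumours with an interaction of 0.33 (95% interval -0.37 to 1.03). Ptch1, the receptor gene and a transcriptional target of the pathway, was at 1.73 to 4.50 FPKM with Vehicle, 3.17 to 4.07 with anti-PD-L1, 2.10 to 4.11 with sonidegib and 2.15 to 3.29 with both (interaction -0.33, 95% interval -1.01 to 0.35, and 0.07 after median-of-ratios scaling). Gli1, the most direct target, stayed at 0.324 FPKM or less, and Hhip was listed at 0 in 10 libraries, and both were under the filter on low values. Cd274, which encodes PD-L1, was under the filter, at 0.320 to 0.577 FPKM with Vehicle, 0.555 to 0.689 with anti-PD-L1, 0.378 to 1.09 with sonidegib and 0.417, 0.710, 2.07 and 1.20 with both. Pdcd1, which encodes PD-1, reached 1.24 FPKM. Of 27 sphingolipid and ceramide genes 2, Degs1 (-0.73) and Acer2 (-0.59), were at an unadjusted p under 0.05, a share of 7.41% against 9.4% of all genes, and 0 were with the GC trend removed. The median of this list was -0.20 as deposited and 0.21 after median-of-ratios scaling. With that scaling 3 members were positive at that p (11.1%, against 4.22% of all genes) and 0 negative. Cers6 had -0.37 (95% interval -1.18 to 0.43).

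How far these tumours could show a departure is set by their spread. The median standard error of an interaction was 0.383 and the median width of its 95% interval 1.60 on the log2 scale. The single call had a size of 3.68, so moderate departures from additivity were not detectable here for most genes, and a p that misses the threshold does not show that the drugs act additively on a gene.

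**Figure D4:**
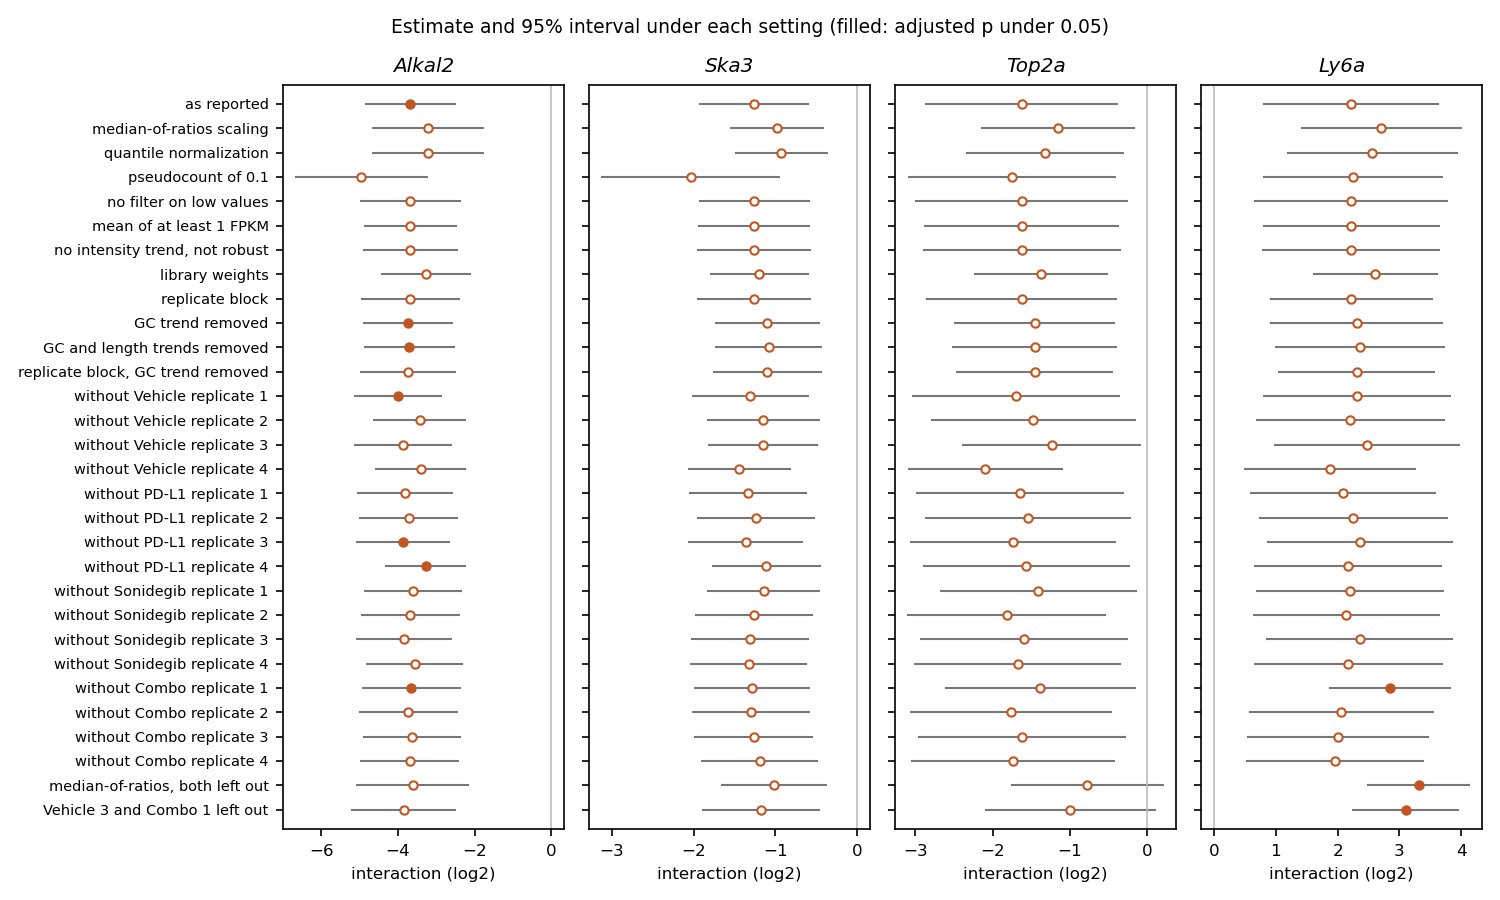
Points are interaction estimates on the log2 scale (x axis) and lines their unadjusted 95% intervals for Alkal2, Ska3, Top2a and Ly6a under each of 30 settings (y axis), filled where the adjusted p is under 0.05. Alkal2 lies between -4.96 and -3.22 and is filled in the setting reported and in 6 others; Ly6a is filled in the 3 settings without Combo replicate 1, and the interval of Top2a reaches 0 when both libraries that stand apart are left out.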

How the data were processed

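RNA of 16 tumours was sequenced, 4 in each of 4 groups. Ribosomal RNA was removed and strand was kept per the labels' protocols, but polyadenylated RNA is given as the molecule, and which holds was not settled. The authors deposited FPKM values for 55146 genes, and TopHat, Cufflinks, GRCm38.p6 and mm10 are named in the submitters' processing notes. Neither versions nor the annotation is given in the sources used here. FPKM is relative to all mapped fragments, so abundant transcripts shift the rest. The numbers of the libraries run through the groups in order, so library order cannot be told apart from treatment.

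Genes that reached 1 FPKM in 4 or more libraries were transformed to log2(FPKM + 1) with no further scaling. Limma 3.58.1 in R 4.3.3, with an intensity trend and robust variance, fitted 1 mean per group over 16 libraries. Tests were two-sided, with Benjamini-Hochberg adjustment over 15105 genes at a threshold of 0.05, and the scripts were tested on simulated data. Fold changes on this scale understate those of low genes. Whole fragments could not be recovered, so depth was approximated from 4959 single-transcript genes longer than 2 kb, after subtracting 200 nt for the fragment. A value of 0 may be a failed estimate, and 385 tested genes held a 0 in at least 1 library, 30 of them with a median of at least 10 FPKM.

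Of 26 gene lists with 488 entries, 484 had a value and 392 were tested, and Irf8, Cert1, Acta1 and Rpl13 were not analysed here. The text names the 10 genes with the lowest p in each direction with a mean of 1 FPKM or more and no clone name, up to 4 genes per list by p, and a fixed set including Ccl8, Slc2a1, Ptch1 and Cd274. Some genes that this rule names are not reported here. The members and lists were chosen with earlier results of these data known. Lists are described by counts and medians without a test. Coordinates and biotypes are from GENCODE release M21 (54468 identifiers matched), and promoters from RefSeq on GRCm38.p6. AP-1 and CRE elements were searched too and are not used. The alternatives were scaling, pseudocount, filter, variance model, library weights, the replicate number as a block, GC and length trends, and each library left out. A pair of alternatives without Vehicle replicate 3 and Combo replicate 1 was chosen after seeing the data.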

Additional observations from a re-analysis of the deposited data

Results flagged for a closer look

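Of 136 sets of 4 tumours examined, 10 held a tumour far from the other 3 by Dixon's ratio, and chance alone gives about 1 in 20. Combo replicate 1 was such a tumour for Ly6a (30.1 FPKM), Il20rb (2.27 FPKM) and H2-DMb1 (10.5 FPKM). H2-DMb1 was also apart in Vehicle replicate 2 (15.4 FPKM) and in Sonidegib replicate 1 (2.13 FPKM). Sonidegib replicate 2 was apart for Ccl8 (6.77 FPKM) and Egln3 (56.7 FPKM), PD-L1 replicate 1 for Tdp1 (3.99 FPKM), PD-L1 replicate 2 for Cd274 (0.555 FPKM) and Combo replicate 4 for Mylpf (117 FPKM). The effect of sonidegib on Alkal2 differed between tumours with and without the antibody by -3.68 on the log2 scale, by the interaction test of limma.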

How the results depend on the processing

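The number of called genes, 1 as reported, was 0 with median-of-ratios scaling, quantile normalization, a pseudocount of 0.1, no filter, a mean of at least 1 FPKM, no intensity trend, library weights, the replicate block, and the replicate block with the GC trend removed. It was 0 to 5 when single libraries were left out, the 5 without Combo replicate 1. It was 1 without Vehicle replicate 1, PD-L1 replicate 3 or PD-L1 replicate 4, and 0 without any of the other 12. At an unadjusted p under 0.05 the setting with the lowest total, without Sonidegib replicate 1, held 802 genes and the one with the highest, without Vehicle replicate 4, 3965, against 1492 as reported. Same-numbered tumours did not deviate together on average (mean correlation -0.056 over 24 pairs, range -0.434 to 0.343). This mean cannot exclude that some tumours are paired by donor or batch, which the labels do not give. The lowest adjusted p of limma under the block was 0.294.

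Genes with all Combo libraries above all others, 8 as reported, numbered 19 with median-of-ratios scaling, 15 with quantile normalization, 38 with no filter and 15 after GC correction. With single libraries left out they numbered 8 to 595, the 595 without Combo replicate 1. Those below all others, 7 as reported, numbered 11 with quantile normalization, 3 after GC correction, and 7 to 394 when 1 library was dropped, the 394 without Combo replicate 1. Counts above and below were 29 and 23 without Combo replicate 3, 18 and 12 without Sonidegib replicate 4, and 8 and 23 without Vehicle replicate 3. The count above was 19 without PD-L1 replicate 2 or Combo replicate 4 and 14 without Combo replicate 2.

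Of 1940 combinations of 67 genes and settings on the log2 scale, 16 changed sign, and the leading negative genes, Ly6a and the cell division genes named were not among them. With median-of-ratios scaling Slc2a1 was at 0.0783, Cers6 at 0.0151, Ptch1 at 0.0683 and Ltk at 0.00404. With quantile normalization Cers6 was at 0.000390, Ptch1 at 0.0452 and Ltk at 0.0457. Cd3g was at -0.0586 with a pseudocount of 0.1 and Gzmb at -0.0931 with library weights. With 1 library left out, Ccl8 was at -0.31 to 0.49 (-0.02 without Vehicle replicate 2), Iigp1 at -0.35 to 1.48 (-0.08, -0.05 and -0.09 without Sonidegib replicate 2, Combo replicate 2 and Combo replicate 4) and Gzmb -0.00939 to 0.30. On the linear scale Slc2a1 was at 8.23 FPKM. Among the relative list medians, changes of sign included endothelium (-0.0297 with the GC trend removed) and, with median-of-ratios scaling and both apart libraries left out, Hedgehog (-0.0434), neutrophils (-0.0415), endothelium (-0.17) and adipocytes (-0.24). When single libraries were left out, luminal and basal epithelium reached -0.11 (Sonidegib replicate 1), Hedgehog -0.000687 (Sonidegib replicate 1), neutrophils -0.0651 (Vehicle replicate 4), endothelium -0.0655 (Vehicle replicate 3), adipocytes -0.13 (Combo replicate 1), heat shock proteins 0.00807 (Vehicle replicate 3) and p53 targets 0.00331 (PD-L1 replicate 4). The causes were not tested. With 4 tumours per group, the median 95% interval of 1.60 limits what could be detected.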
